A study of Mus musculus with 2 samples.

Results

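Tubulins and the machinery that folds, assembles and organises them were compared between mouse morulae that had received double-stranded RNA targeting Nat10 (dsNat10), an RNA acetyltransferase, and morulae that had received double-stranded RNA targeting GFP (dsGFP). The set was taken by gene symbol: the α-, β-, γ-, δ- and ε-tubulins, the γ-tubulin complex proteins (Tubgcp), the tubulin cofactors (Tbca to Tbce), the chaperonin subunits (Cct genes and Tcp1), the prefoldin subunits (Pfdn genes and Vbp1), and the regulators Pdcl3, Stmn1, Mapre1 and Mapre3. It holds 46 of the 12836 genes in the deposited table. Each group, dsNat10 and dsGFP, is 1 library of embryos of the ICR strain at the morula stage. GFP is foreign to the mouse, and dsGFP embryos served as injection controls. Injected morulae numbered 50 per the labels, which leave unsaid if each library or both together held them. With 1 library per group there is no replicate check, no p-value was computed, and each difference describes these libraries only.

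Microtubules are polymers of α- and β-tubulin dimers, and they form the spindle of every cleavage division and the transport tracks of the blastomere. A new tubulin chain is passed by prefoldin to the chaperonin, a ring of paralogous subunits that also folds actin, and the cofactors then join α- to β-tubulin. γ-Tubulin, held in a ring by the Tubgcp proteins, starts new microtubules, and in the mouse the early cleavage divisions do so without centrioles. In mammalian cells the mRNAs of α- and β-tubulin are degraded when free dimers accumulate, through recognition of the first residues of the growing chain.

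The coding starts below are shown because they encode those first residues. They also show how alike the isotypes are in letters, which bears on how reads can be assigned. Only letters were compared, and different letters can encode the same residues. Each line gives the first 30 bases of the coding sequence, read 5′ to 3′ from the GENCODE M21 transcript on GRCm38, with the first 4 codons in capitals. The genes lie on chromosome 15 (Tuba1a, Tuba1b, Tuba1c), 1 (Tuba4a), 13 (Tubb2a), 2 (Tubb4b), 17 (Tubb5) and 11 (Tubg1).
Tuba1a: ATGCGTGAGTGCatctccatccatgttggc
Tuba1b: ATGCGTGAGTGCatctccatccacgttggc
Tuba1c: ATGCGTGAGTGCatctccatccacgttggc
Tuba4a: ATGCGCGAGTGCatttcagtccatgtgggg
Tubb2a: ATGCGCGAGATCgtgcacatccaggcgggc
Tubb4b: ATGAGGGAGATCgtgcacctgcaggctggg
Tubb5: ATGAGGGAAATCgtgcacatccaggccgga
Tubg1: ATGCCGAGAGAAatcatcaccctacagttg

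Tuba1a, Tuba1b and Tuba1c share the same first 12 letters, ATGCGTGAGTGC, which begin the coding sequence of 4 of 21794 genes searched, the other being the predicted gene Gm49450. Tubb4b and Tubb3 share ATGAGGGAGATC, found in 2 of the 21794. The start of Tubg1, whose mRNA encodes γ-tubulin, has other letters. That of Tubb6 is not shown.

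The libraries held 28303129 (dsNat10) and 29139243 (dsGFP) estimated reads. The target Nat10 was 23.7-fold lower, with 37 reads in dsNat10 against 886 in dsGFP (95% counting interval 17.1 to 33.9). All 8 morula markers listed, such as Pou5f1 and Cdh1, were detected in both libraries, but 5 of them had a log2 ratio below 0, with a median of -0.79 over the 8. Cdx2, Nanog and Tead4 were lower by the size rule defined below, while Pou5f1 (1.66-fold lower) and Cdh1 (1.82-fold lower) did not reach it. Their summed levels, 7121 CPM in dsNat10 and 7176 CPM in dsGFP, were mostly Dppa5a, at 4899 CPM in dsNat10 and 4562 CPM in dsGFP. Of 8 cumulus cell markers, 2 were in the table, summing to 29.1 CPM in dsNat10 and 34.0 CPM in dsGFP. Amhr2, with 831 reads in dsNat10 and 976 in dsGFP, made up nearly all of that sum. Amh was at 0 in dsNat10 and at 5 reads in dsGFP. Of 8 blood or fibroblast markers, 5 were in the table, with 92.2 CPM in dsNat10 and 73.4 CPM in dsGFP. Pecam1 had 1879 reads in dsNat10 and 1036 in dsGFP, Cd68 had 673 and 880, and Hba-a1 had 82 and 192. Col1a1 was at 0 in dsNat10 and at 9 reads in dsGFP, and Hbb-bt at 0 and 1. Of 5 oocyte markers, 3 were in the table, with 32.5 CPM in dsNat10 and 5.54 CPM in dsGFP, and they ran in both directions: Zp3 had 642 reads in dsNat10 and 106 in dsGFP, H1f8 had 286 and 0 in that order, and Gdf9 had 1 and 54. The part of these cells in the differences below was not tested. In such pooled RNA, fewer cells of a type and less RNA per cell cannot be told apart.

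By summed reads, α- and β-tubulin mRNA was 1.90-fold lower in the dsNat10 library (1.87 to 1.93). Chaperonin mRNA was near equality, and its direction depended on the unit. By summed reads it was 1.021-fold lower in dsNat10 (1.015 to 1.028), but summed TPM was higher there, at 5073 against 4933 in dsGFP. Scaling of the libraries alone moved log2 ratios by -0.03, and the interval does not cover that choice. A gene was called higher or lower when its mean was 5 CPM (reads per 1000000) or more, its log2 ratio of dsNat10 CPM + 1 over dsGFP CPM + 1 had a size of 1 or more, and the exact 95% counting interval of the ratio excluded equality. Of the 46 members, 39 had a mean of 5 CPM or more. By this rule 8 of the 39 were lower (20.5%), against 15.3% of all 8738 genes tested, and 1 was higher (2.56%), against 15.2%. The log2 ratio was below 0 in 26 of the 39 (66.7%), against 49.5% of all genes, and the median log2 ratio was -0.28, against 0.01 over all genes. Calls depended on abundance. Where the mean reached 20 CPM, 5 of 33 members were lower, against 8.74% of 5746 genes, and 1 was higher, against 9.12%. Where it reached 50 CPM, 3 of 25 members were lower, against 4.62% of 3546 genes, and 0 were higher, against 4.71%. Estimated counts were fractional for 24 of the 46 members, against 23.2% of all genes in the table.

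**Figure D1:**
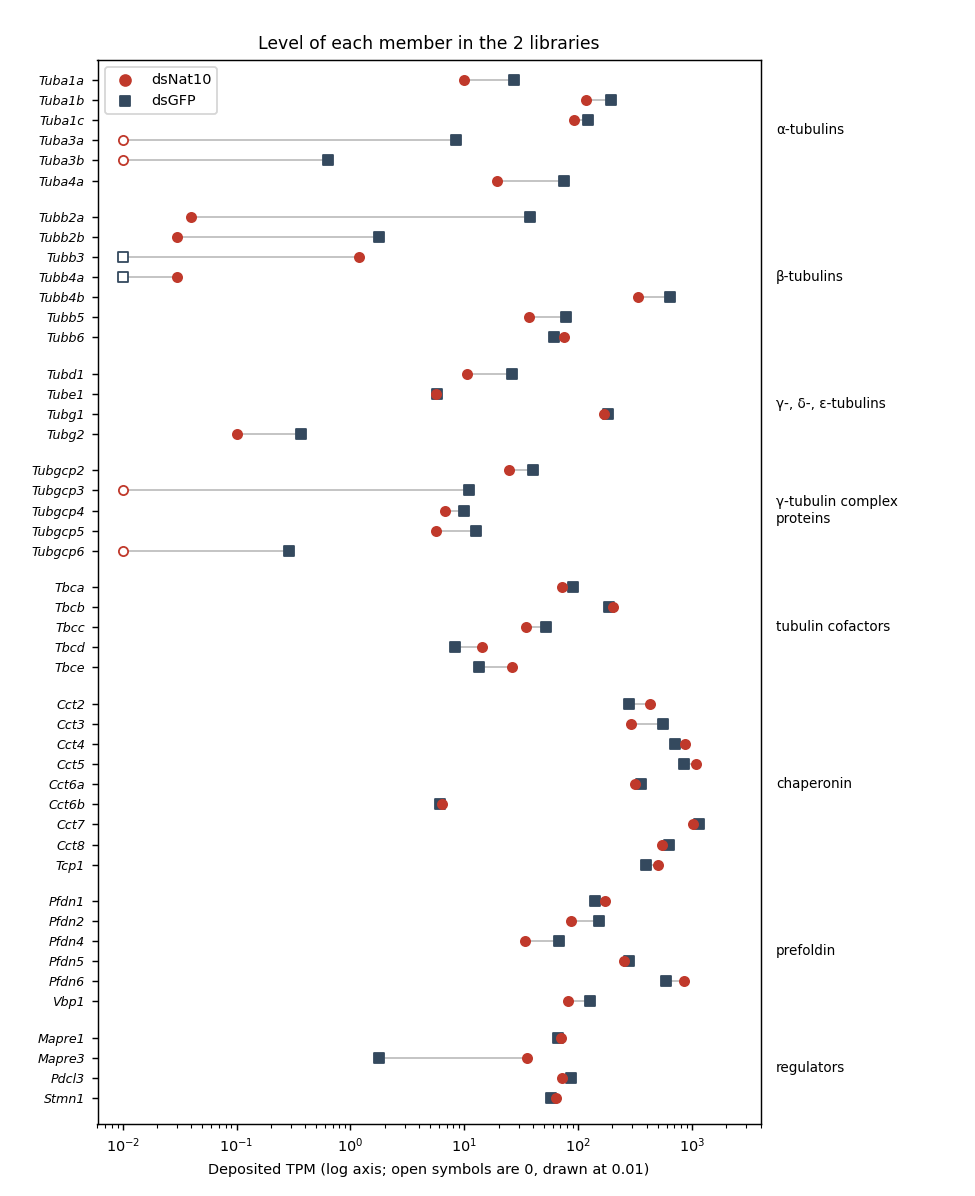
Level of each of the 46 members in deposited TPM (log axis), with dsNat10 as circles and dsGFP as squares, 1 library each, and values of 0 as open symbols at 0.01. The circles of Tuba4a (19.5 TPM) and Tubb4b (338 TPM) lie left of their squares (75.0 and 647 TPM), while most chaperonin pairs lie close together, Cct3 (291 and 561 TPM) less so.

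All 6 α-tubulins, which face the minus end in each dimer, had lower values in dsNat10 than in dsGFP. TPM, which divides by transcript length, is used for levels of different genes. The 6 α-tubulins summed to 240 TPM in dsNat10 and 429 TPM in dsGFP, and their reads gave a 1.88-fold lower level (1.82 to 1.93). Tuba1b, the most abundant, had 118 TPM in dsNat10 and 194 TPM in dsGFP, from 3141 and 5449 reads, and was 1.72-fold lower (1.64 to 1.79), short of the size rule. Tuba1c had 92.4 TPM in dsNat10 and 123 TPM in dsGFP and was 1.39-fold lower (1.33 to 1.45), also short of it.

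Larger differences stood among the less abundant isotypes. Tuba4a, an α-tubulin encoded without the usual terminal tyrosine, had 19.5 TPM in dsNat10 and 75.0 TPM in dsGFP, from 722 and 2923 reads, and was 4.01-fold lower (3.69 to 4.35). Tuba1a, best known from neurons, had 9.88 TPM in dsNat10 and 27.3 TPM in dsGFP and was 2.87-fold lower (2.50 to 3.31). These were the 2 α-tubulins past the size rule, of 4 averaging at least 5 CPM, against 15.3% of all genes. The median log2 ratio of the 4 was -1.102, against 0.01 over all genes.

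Tuba3a and Tuba3b, known from the testis, were at 0 in dsNat10. Tuba3a had 0 reads against 236, at least 77.9-fold lower by a floor of 3 counts in dsNat10 (the exact counting interval begins at 62.8-fold), with a mean under 5 CPM, and Tuba3b had 0 against 18. Such zeros were common: of 3614 genes in that range of dsGFP reads (200 to under 1000), 12.9% had none in dsNat10, and of 3430 genes in the same range of dsNat10 reads, 4.43% had none in dsGFP. The bound covers counting error only. All 6 α-tubulins have fractional estimated counts. How the fractions arose was not stated. Reads may have been split between near-identical genes, so the levels of single isotypes are uncertain. Of the 50-base windows in the Tuba1b transcript, 83.1% also occur in transcripts of other genes, and 59.3% occur in Tuba1c. For Tuba4a 47.7% are shared with the overlapping gene Stk16. That share is of a chosen transcript of 2840 bases. The deposited values imply a shorter one, of 1911 bases in dsNat10 and 1912 bases in dsGFP.

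β-Tubulins, which carry the exchangeable GTP of the dimer, were lower by nearly the same factor. The 7 summed to 451 TPM in dsNat10 and 827 TPM in dsGFP, and their reads gave a 1.91-fold lower level (1.87 to 1.95). The ratio of summed α- to summed β-tubulin TPM was 0.531 in dsNat10 and 0.519 in dsGFP, so the proportion of the 2 families was close in the libraries.

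Tubb4b made up 74.9% of β-tubulin TPM in dsNat10 and 78.2% in dsGFP. It had 338 TPM in dsNat10 and 647 TPM in dsGFP, from 9251 and 18623 reads, and was 1.99-fold lower (1.94 to 2.04) with a log2 ratio of -0.99, just outside the size rule. Tubb5, a widely expressed isotype, had 36.9 TPM in dsNat10 and 78.8 TPM in dsGFP, from 1755 and 3949 reads, and was 2.23-fold lower (2.10 to 2.36). Both have whole counts, although 55.5% of the 50-base windows of Tubb4b also occur in other transcripts, mostly in the pseudogene Tubb4b-ps1.

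Tubb6 ran the other way. It had 74.9 TPM in dsNat10 and 61.7 TPM in dsGFP. With fractional counts, it was 1.17-fold higher (1.097 to 1.24) without reaching the rule. Its TPM was 2.03 times that of Tubb5 in dsNat10 and 0.782 times that of Tubb5 in dsGFP, and its share of β-tubulin TPM was 16.6% in dsNat10 and 7.46% in dsGFP.

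Tubb2a and Tubb2b, neighbours on chromosome 13 (GRCm38 34074278 to 34078008 and 34127008 to 34130354), were almost absent from dsNat10. Tubb2a had 1 read in dsNat10 and 1089 in dsGFP, or 0.04 and 37.6 TPM, a ratio of 1078-fold lower with a counting interval of 193 to 42611. Of 4421 genes with 1000 reads or more in dsGFP, 0.565% had 1 read or fewer in dsNat10, but Tubb2a lies near the lower edge of that range. Of 3614 genes with 200 to under 1000 dsGFP reads, 12.9% had 0 reads in dsNat10. A range around the level of Tubb2a was not examined. Tubb2b had 1 read in dsNat10 and 63 in dsGFP, with a mean under 5 CPM. Both have fractional counts, and 45.6% of the 50-base windows of Tubb2a occur in Tubb2b. Tubb3, a marker of neurons, had 36 reads in dsNat10 and 0 in dsGFP, at least 12.1-fold higher by a floor of 3 counts in dsGFP (interval from 9.36-fold), and Tubb4a had 1 read and 0. Those 2 stayed under the mean of 5 CPM. Tubb2a and Tubb5 were thus the 2 β-tubulins past the size rule, of 4 that passed the filter, against 15.3% of all genes, and the median log2 ratio of the 4 was -1.07, against 0.01.

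**Figure D2:**
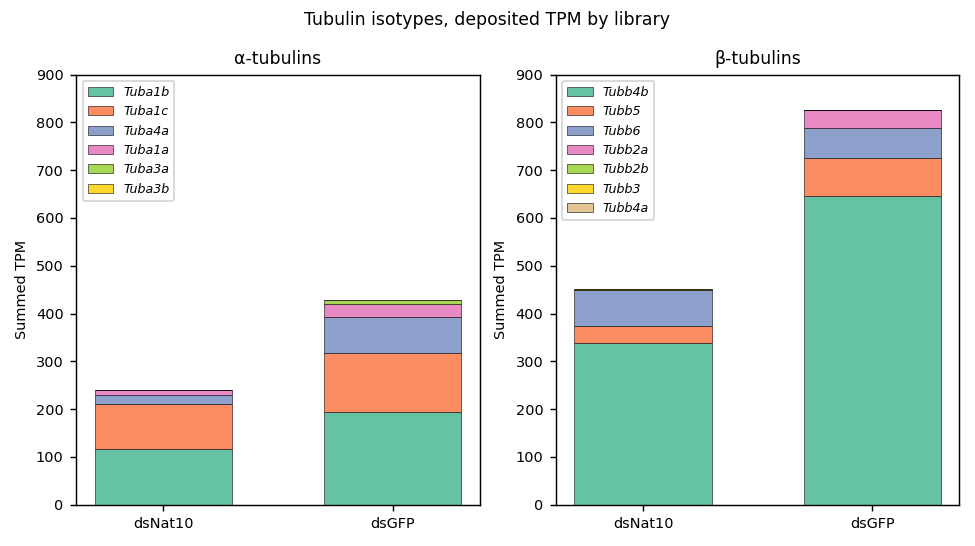
Summed deposited TPM of the 6 α-tubulins (left panel) and the 7 β-tubulins (right panel), dsNat10 and dsGFP bars side by side with 1 library each and isotypes stacked. The α bars reach 240 and 429 TPM and the β bars 451 and 827 TPM, with Tubb4b the tallest block of the β bars.

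Of the promoters of these genes, 3 are shown: that of the most abundant tubulin (Tubb4b), that of the β-tubulin with 1 read in dsNat10 (Tubb2a), and that of Mapre3, the member called higher. Each runs from 250 bases before to 50 after the first start that RefSeq lists on GRCm38.p6, read 5′ to 3′ along the gene. Capitals mark matches on either strand to the box CCAAT, to the box TATAAA, to the GC box GGGCGG, to the ETS-type motif CCGGAAG or to the heat shock motif GAANNTTC, searched without regard to overlap.
Tubb4b, chr2:25224653-25224952, minus strand: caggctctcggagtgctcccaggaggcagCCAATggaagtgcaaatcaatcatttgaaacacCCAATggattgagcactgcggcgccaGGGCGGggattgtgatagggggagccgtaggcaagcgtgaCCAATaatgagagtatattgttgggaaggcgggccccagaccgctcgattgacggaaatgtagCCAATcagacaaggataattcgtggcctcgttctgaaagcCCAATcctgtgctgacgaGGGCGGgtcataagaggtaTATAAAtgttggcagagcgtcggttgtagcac
Tubb2a, chr13:34077959-34078258, minus strand: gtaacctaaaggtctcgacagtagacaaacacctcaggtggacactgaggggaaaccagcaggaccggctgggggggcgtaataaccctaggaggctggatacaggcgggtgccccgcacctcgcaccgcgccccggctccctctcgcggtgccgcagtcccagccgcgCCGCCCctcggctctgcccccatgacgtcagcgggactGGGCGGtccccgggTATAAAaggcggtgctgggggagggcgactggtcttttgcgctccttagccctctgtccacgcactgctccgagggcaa
Mapre3, chr5:30814391-30814690, plus strand: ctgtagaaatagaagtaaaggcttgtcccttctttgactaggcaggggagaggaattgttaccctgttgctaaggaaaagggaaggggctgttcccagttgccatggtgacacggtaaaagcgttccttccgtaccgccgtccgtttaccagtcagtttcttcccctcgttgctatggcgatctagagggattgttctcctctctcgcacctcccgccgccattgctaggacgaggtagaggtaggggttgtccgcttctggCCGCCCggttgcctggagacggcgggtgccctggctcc

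Tubb4b held 5 matches to CCAAT, 2 to GGGCGG and 1 to TATAAA. Tubb2a held 2 to GGGCGG, 1 to TATAAA and none to CCAAT, and Mapre3 held 1 to GGGCGG, in the first of its 2 listed promoters. A promoter was found for 38 of the 46 members. GGGCGG stood in 26 of the 38 (68.4%), against 65.9% of the 7116 genes in the table that passed the filter and have a promoter, and 35.9% of all 27025 genes with a promoter. CCAAT stood in 17 of the 38 (44.7%), against 40.3% of the genes that passed and 37.9% of all. TATAAA stood in 3 of the 38 (7.89%), against 6.37% and 14.2%, CCGGAAG in 8 (21.1%), against 22.0% and 9.12%, and GAANNTTC in 1 (2.63%), against 5.82% and 7.95%. A match is a description of letters only.

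Of the γ-, δ- and ε-tubulins, 1 of 3 that passed the filter was lower by the size rule, against 15.3% of all genes. Tubg1, the abundant γ-tubulin that starts microtubules, had 170 TPM in dsNat10 and 182 TPM in dsGFP and was 1.12-fold lower (1.07 to 1.16). Its neighbour on chromosome 11, Tubg2, had 3 reads in dsNat10 and 12 in dsGFP. Both have fractional counts. Tubd1, the δ-tubulin of centrioles, had 10.6 TPM in dsNat10 and 26.02 TPM in dsGFP and was 2.58-fold lower (2.28 to 2.92), past the size rule with fractional counts. The ε-tubulin Tube1 had 300 reads in dsNat10 and 324 in dsGFP, with an interval of the ratio that included equality (0.797 to 1.098).

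The 5 Tubgcp genes summed to 37.1 TPM in dsNat10 and 74.5 TPM in dsGFP. Of the 4 that passed the filter, 1 was lower by the size rule, against 15.3% of all genes, and all had a log2 ratio below 0, with a median of -0.82, against 0.01 over all genes. Tubgcp3, which with Tubgcp2 builds the small γ-tubulin complex, was past the size rule with 0 reads in dsNat10 and 773 in dsGFP, at least 255-fold lower by the same floor (interval from 207-fold), within the range of dsGFP reads where zeros in dsNat10 were common. Tubgcp2, the most abundant, had 24.7 TPM in dsNat10 and 40.5 TPM in dsGFP and was 1.70-fold lower (1.59 to 1.82), short of the rule. Tubgcp5, a subunit of the ring, was 1.91-fold lower in CPM (1.69 to 2.17), and its log2 ratio was -0.89 in CPM and -1.05 in deposited TPM. Tubgcp4, also of the ring, was 1.53-fold lower (1.37 to 1.71), and Tubgcp6 had 0 reads in dsNat10 and 31 in dsGFP. Tubgcp2, Tubgcp4 and Tubgcp6 have fractional counts, and 47.9% of the 50-base windows of Tubgcp4 occur in Trp53bp1.

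**Figure D3:**
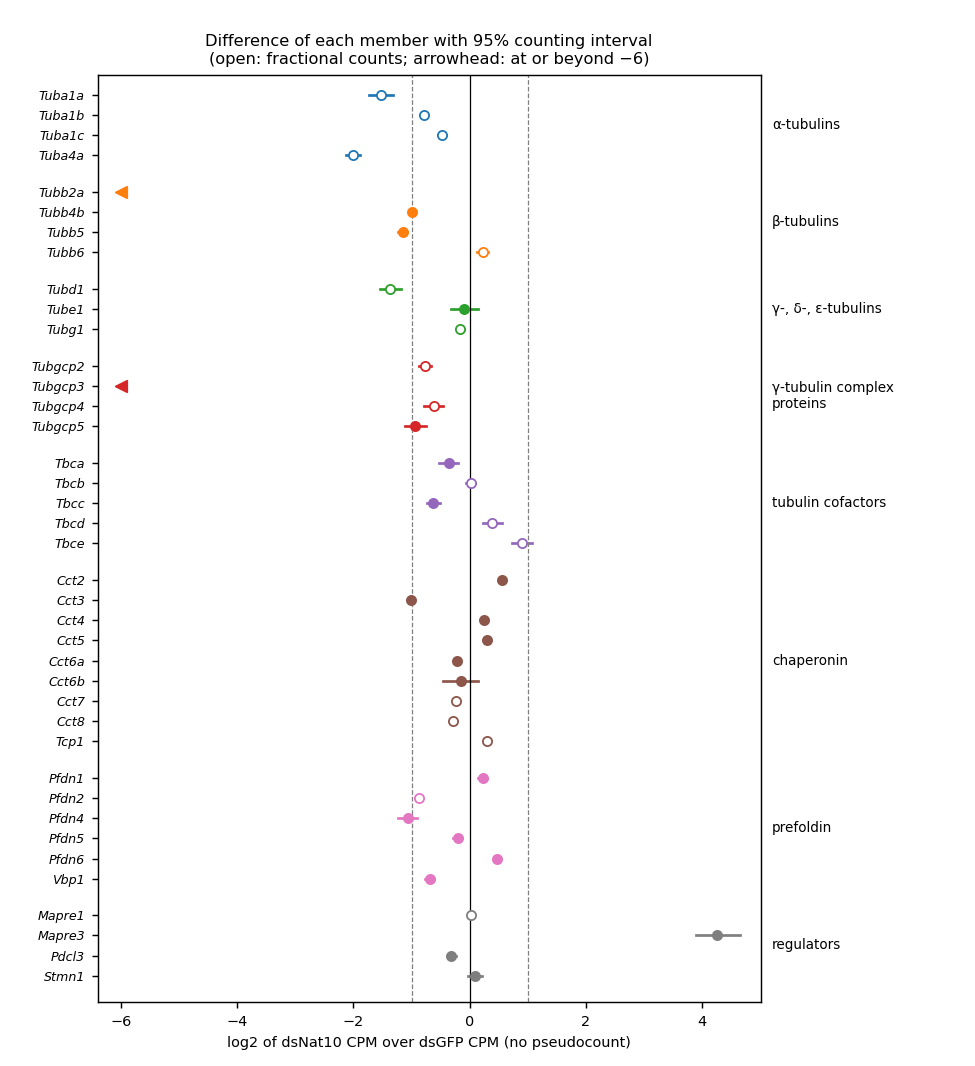
The log2 ratio of dsNat10 CPM over dsGFP CPM, without a pseudocount, for the 39 members with a mean of 5 CPM or more, with 95% counting intervals as lines and open symbols for fractional counts. Dashed lines mark a ratio of 2 in either direction, and filled arrowheads mark Tubb2a (fractional) and Tubgcp3 (whole), which lie beyond the axis. Tubulins and Tubgcp genes lie mostly left of 0, and chaperonin genes lie on both sides.

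The tubulin cofactors differed in both directions, with 0 of 5 past the size rule, against 15.2% of all genes higher and 15.3% lower. Tbcb, which binds α-tubulin, was the most abundant at 204 TPM in dsNat10 and 188 TPM in dsGFP, with an interval of the CPM ratio that included equality (0.962 to 1.06). Tbce, which also handles α-tubulin, was 1.86-fold higher (1.66 to 2.10), with 26.1 TPM in dsNat10 and 13.4 TPM in dsGFP, and Tbcd, which handles β-tubulin, was 1.31-fold higher (1.17 to 1.46). Tbca, which receives β-tubulin, was 1.29-fold lower (1.14 to 1.45), and Tbcc, which triggers release of the finished dimer, was 1.54-fold lower (1.43 to 1.66). Tbcb, Tbcd and Tbce have fractional counts. As a sum the 5 stood at 352 TPM in both libraries.

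The chaperonin was the most abundant group, and its sum hardly differed. Its 9 genes summed to 5073 TPM in dsNat10 and 4933 TPM in dsGFP, while their reads gave a ratio of 0.979 (0.973 to 0.985). Its summed TPM was 7.35 times that of α- and β-tubulin in dsNat10 and 3.93 times in dsGFP. The median log2 ratio of the 9 was -0.14, a direction that turned in TPM (0.0399) and FPKM (0.0109). Each of these is the value of Cct6b, whose mean was only 6.47 CPM. Over the other 8 genes the median was 0.00649.

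Within the ring the subunits went separate ways. Cct3 had 291 TPM in dsNat10 and 561 TPM in dsGFP, from 9995 and 20251 reads, and was 2.01-fold lower (1.96 to 2.05). Its log2 ratio of -1.002 was just past the size rule and fell short of it in TPM, at -0.94. Cct2 had 430 TPM in dsNat10 and 280 TPM in dsGFP, from 15138 and 10378 reads, and was 1.47-fold higher (1.44 to 1.51). The TPM of Cct2 was thus 1.476 times that of Cct3 in dsNat10 and 0.498 times in dsGFP. This pair holds the highest and the lowest log2 ratio of the chaperonin genes. These are mRNA levels, and protein was not measured.

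The other subunits differed less. Cct5 had 1091 TPM in dsNat10 and 849 TPM in dsGFP (1.24-fold higher, 1.22 to 1.25), Cct4 had 873 and 712 TPM in the same order (1.18-fold higher), and Tcp1 had 505 and 393 TPM (1.23-fold higher). Cct7, the most abundant in dsGFP, had 1016 TPM in dsNat10 and 1144 TPM in dsGFP (1.17-fold lower, 1.16 to 1.19), Cct8 was 1.21-fold lower and Cct6a 1.17-fold lower. Tcp1, Cct7 and Cct8 have fractional counts. The testis-type subunit Cct6b had 6.33 TPM in dsNat10 and 6.13 TPM in dsGFP. Over the 8 subunits without Cct6b, the highest TPM was 3.74 times the lowest in dsNat10 and 4.09 times in dsGFP.

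Prefoldin genes showed a wider spread in dsNat10. Over the 6 subunits the highest TPM was 25.0 times the lowest in dsNat10 and 8.71 times in dsGFP. Pfdn6 was the highest in both, with 853 TPM in dsNat10 and 593 TPM in dsGFP (1.39-fold higher, 1.34 to 1.43). Pfdn4 was the lowest in both, with 34.2 TPM in dsNat10 and 68.2 TPM in dsGFP, from 460 and 972 reads, and was 2.09-fold lower (1.87 to 2.34). Its log2 ratio of -1.02 was past the size rule, and in TPM it was -0.98 and short of it.

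Pfdn2 was 1.84-fold lower (1.75 to 1.93), with fractional counts, and Vbp1, the third prefoldin subunit, 1.61-fold lower (1.53 to 1.70). Pfdn5 was 1.15-fold lower (1.09 to 1.22) and Pfdn1 was 1.17-fold higher (1.11 to 1.23). The median log2 ratio of the 6 was -0.44, and their summed reads gave a ratio of 0.927 (0.909 to 0.945). In TPM the sum ran the other way, at 1480 in dsNat10 and 1363 in dsGFP, and Pfdn6 led it.

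**Figure D4:**
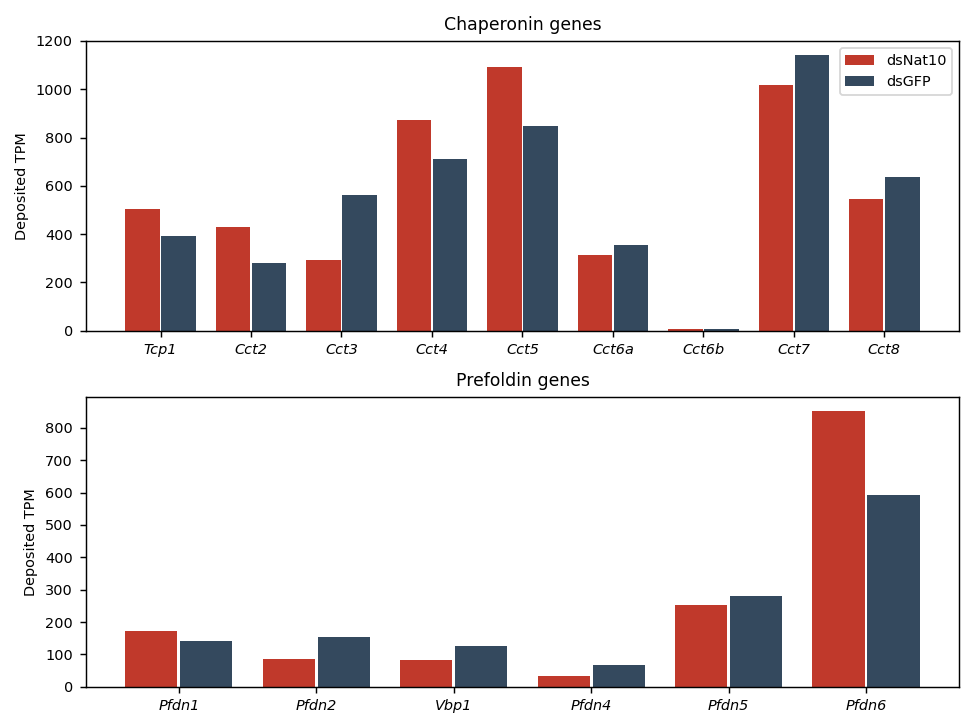
Deposited TPM of each chaperonin gene (upper panel) and prefoldin gene (lower panel), dsNat10 bars left of dsGFP bars, 1 library each. Cct3 and Cct2 differ in opposite directions, and Pfdn6 is the tallest prefoldin bar in both libraries, at 853 and 593 TPM.

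Among the regulators Mapre3 stood apart. Mapre3, an end-binding protein (EB3) that tracks growing microtubule plus ends and is best known from neurons and muscle, lies on chromosome 5 (GRCm38 30814606 to 30866106). Mapre3 had 1154 reads in dsNat10 and 61 in dsGFP, or 35.9 and 1.78 TPM, and was 19.1-fold higher (14.8 to 25.2). Its mean passed the filter through dsNat10 alone, at 40.4 CPM against 2.11 CPM in dsGFP. The share of all genes with a rise of that size was not computed. Its counts are whole, and none of its 50-base windows occurs in another gene's transcript. Its paralogue Mapre1 (EB1), the widely expressed form, had 70.0 TPM in dsNat10 and 66.0 TPM in dsGFP, with an interval of the CPM ratio that included equality (0.990 to 1.05). Mapre1 has fractional counts, and its TPM was 1.95 times that of Mapre3 in dsNat10 and 37.1 times in dsGFP.

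Stmn1, which binds free dimers, had 1079 reads in dsNat10 and 1022 in dsGFP, again with equality inside the interval (0.978 to 1.16). Pdcl3, a phosducin-like partner of the chaperonin, had 72.9 TPM in dsNat10 and 87.2 TPM in dsGFP and was 1.24-fold lower (1.18 to 1.32).

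**Figure D5:**
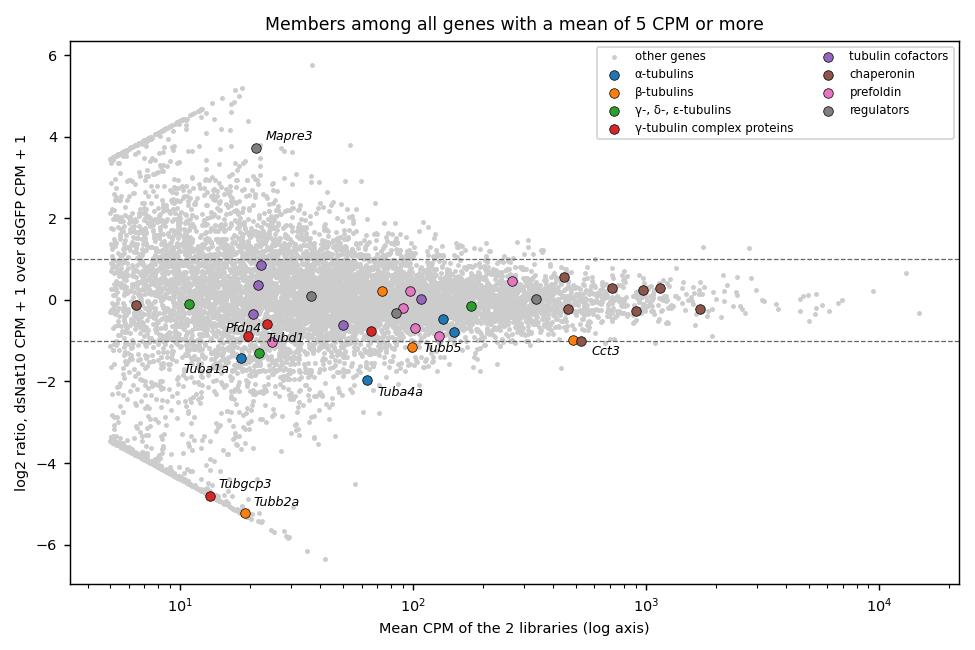
The log2 ratio of dsNat10 CPM + 1 over dsGFP CPM + 1 against mean CPM (log axis) for the 8738 genes averaging at least 5 CPM, members in colour by role, with dashed lines at a log2 ratio of 1 in either direction. Grey points spread widely at low abundance, where Mapre3, Tubb2a and Tubgcp3 lie, and narrow at high abundance, where Cct3 lies at -1.002.

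Related genes outside the set differed in both directions. Of 73 genes listed, 65 were in the table and 61 had a mean of 5 CPM or more, with 11 higher (background 15.2%) and 11 lower (background 15.3%) and a median log2 ratio of -0.01. Among 16 partners in nucleation, 2 were higher and 2 lower, near those shares. The augmin subunits Haus5 (3.38-fold lower, 3.17 to 3.60) and Haus6 (2.22-fold higher, 2.08 to 2.37), parts of a complex that branches spindle microtubules, went apart.

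Of 12 plus-end and lattice proteins that passed the filter, 2 were higher and 4 lower, against 15.2% and 15.3% of all genes. Map4, which stabilises microtubules, was 2.06-fold higher (1.95 to 2.18) with fractional counts. Mapre2 (EB2), named after its value was seen as the remaining paralogue of Mapre1 and Mapre3, had 2 reads in dsNat10 and 909 in dsGFP (450-fold lower, 124 to 3720). Mapre2 lay in the range of 200 to under 1000 dsGFP reads, where 12.9% of genes had 0 in dsNat10. In the same range of dsNat10 reads, 4.43% had 0 in dsGFP. Over all 12836 genes, 2655 were at 0 in dsNat10 and 456 in dsGFP. In these libraries the 3 paralogues differed in separate ways, with Mapre1 alone near equality.

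Of 14 genes for severing and tubulin modification, 5 were higher and 3 lower, against 15.2% and 15.3% of all genes, with a median log2 ratio of 0.44, against 0.01. Both known tubulin deacetylases in the list passed the rule, in opposite directions. Hdac6 had 5 reads in dsNat10 and 1249 in dsGFP (247-fold lower, 106 to 763), and Sirt2 was 2.28-fold higher (2.05 to 2.53). Zeros, which Hdac6 comes near, were more common in dsNat10 than in dsGFP. Ttll12 was 5.48-fold lower (4.80 to 6.28) and Ttll4, a glutamylase, 3.56-fold lower (3.21 to 3.96).

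Of 12 chaperonin and prefoldin partners, 2 were higher and 2 lower, against the same 15.2% and 15.3%. Tbccd1, a relative of Tbcc, was 2.57-fold higher (2.39 to 2.77), and Rpap3, a subunit of a cochaperone complex that also holds prefoldin-like proteins, was 2.16-fold lower (1.999 to 2.34). Wdr92, a partner of that complex, was 3.41-fold lower (3.02 to 3.85) with fractional counts. Of 7 other proteins that the chaperonin folds and whose genes passed the filter, none was past the size rule. Over all genes the shares were 15.2% higher and 15.3% lower. Both actins of the list are named after their values were seen, and both have fractional counts. Actb had 455689 reads in dsNat10 and 293141 in dsGFP, 1.57-fold higher (1.56 to 1.58), and Actg1 was 1.28-fold lower (1.26 to 1.29).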

How the data were processed

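RNA of morulae injected with dsNat10 or dsGFP was measured in 1 library per group. Per the labels, polyadenylated RNA was amplified by SMART-seq2 and sequenced with paired ends. The submitters' processing notes name Trim Galore for trimming, HISAT on GRCm38 for mapping and HTSeq for counting, without versions. The authors deposited estimated counts per gene, FPKM and TPM. The deposited estimated counts are fractional for 23.2% of genes (24 of the 46 members), and which program made the fractions was not stated. The deposited FPKM and TPM values are scaled by transcript length, and TPM sums to 1000000 per library.

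Estimated counts were rounded to whole numbers and scaled by TMM in edgeR 4.0.16 (R 4.3.3), which moved log2 ratios by -0.03 against plain totals. Ratios of counts carry exact (Clopper-Pearson) 95% intervals. A count of 0 was given a floor of 3 counts, 0.105 CPM in dsNat10 and 0.104 CPM in dsGFP. Reads amplified by PCR and carrying no molecular identifier do not count independent molecules, so intervals and floors cover counting error only. Folds with an interval are CPM ratios without a pseudocount. Several genes in a set share paralogous sequence, and the kit does not mark strand, so overlapping genes cannot be told apart.

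By gene ID, all 46 members were found in the GRCm38.p6 gene table of RefSeq. Transcripts and coding starts came from GENCODE M21, the longest coding transcript per gene, found for 45 members (not Cct6a). Windows of 50 bases were searched in the transcripts of all other genes, on both strands. Shares of windows describe the chosen transcripts, which need not be those measured. For motif counts the first promoter listed for each gene was used. Every member was accounted for. Values in full were given for members past the size rule and the most abundant of each group. Related genes were named where past the size rule at a mean of 20 CPM or more, at most 4 a list, apart from those marked in the text. Members and lists were chosen with earlier results of these data known. Alternatives were plain totals, DESeq2 1.42.0 size factors, TPM, FPKM, other filters, pseudocounts and thresholds, and leaving out fractional counts.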

Additional observations from a re-analysis of the deposited data

How the results depend on the processing

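The number of members called lower was 8 of 39 in the comparison as reported. At a mean of 20 CPM or more it was 5 of 33, against 8.74% of all genes. At 50 CPM or more it was 3 of 25, against 4.62%. At a 1.5-fold threshold it was 16 of 39, against 23.8%. Without genes with fractional counts it was 4 of 21, against 15.7%. With no filter on mean CPM it was 11 of 46, a share under the 25.3% of all 12836 genes called lower that way, where as reported the members' share of 20.5% was above the 15.3% of all genes. The number called higher, 1 as reported, was 2 of 46 with no filter on mean CPM, against 13.1% of all genes. It was 0 of 25 at 50 CPM or more, against 4.71%, and 2 of 39 at a 1.5-fold threshold, against 25.1%. Related genes called higher, 11 as reported, numbered 4 at 20 CPM or more and 3 at 50 CPM or more. Those called lower, also 11, numbered 6 and 2. Of all genes, 9.12% and 4.71% were higher at these filters, and 8.74% and 4.62% were lower. Higher filters and leaving out genes test fewer genes by construction. The median log2 ratio of members stayed between -0.33 and -0.22 under the alternatives run. The chaperonin median turned to 0.0399 in TPM, 0.0109 in FPKM, 0.00649 at a mean of 20 CPM or more and also 0.00649 at 50 CPM or more, and 0.0511 without fractional counts. As reported, in TPM and in FPKM, that median was the value of Cct6b. Of the 9 called members, 7 kept their call wherever an alternative tested them. Cct3 and Pfdn4 lost it with plain totals, TPM, FPKM and a pseudocount of 5 CPM, with log2 ratios between -1.02 and -0.94 for Cct3 and between -1.06 and -0.87 for Pfdn4. Tubb4b passed the rule with DESeq2 size factors (-1.01), and Tubgcp5 in TPM (-1.05) and FPKM (-1.03). No paired analysis was possible because there is 1 library per group.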

Other observations

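The deposited counts and FPKM values together imply a transcript length for each gene in each library. Among genes with 100 reads or more and an FPKM of 1 or more in both libraries, the implied lengths differed by more than 1.1-fold for 7.88% of 7572 genes and for 3 of 36 members (8.33%), Tubgcp5, Tbcd and Cct6b, named after their values were seen. Tubgcp5 had 3524 bases in dsNat10 and 2850 bases in dsGFP, so that its length-scaled ratio is lower than its ratio in CPM. Tbcd had 2539 bases in dsNat10 and 3223 bases in dsGFP, and its log2 ratio was 0.37 in CPM and 0.72 in TPM. Cct6b had 1428 bases in dsNat10 and 1576 bases in dsGFP. The cause was not tested.

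Fractional counts and shared sequence often went together among the members, with exceptions both ways. Of 24 members with fractional counts, 21 shared at least 1 window of 50 bases with a transcript of another gene, with a median of 17.2% of windows. Of 21 members with whole counts and a matched transcript, 12 shared at least 1, with a median of 0.374%. Tubb6, Tubd1 and Tubgcp2 had fractional counts and no shared window. Tubb4b (55.5%) and Stmn1 (36.5%) had whole counts and the largest shares among those members. The shares over all genes were not computed.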
